A study of Homo sapiens with 6 samples.

Results

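The MYC, MAX and MXD network is a set of basic helix-loop-helix leucine zipper transcription factors that bind E-box DNA as dimers. MYC and MYCN pair with MAX and activate genes of growth and division. The MXD proteins (MXI1, MXD3 and MXD4 among them), MNT and MGA compete for the same partner MAX, and MXD proteins and MNT recruit SIN3 corepressors to the same sites. The network was followed here in HEK293T cells, a line derived from human embryonic kidney and transformed with viral genes, after transient over-expression of *USF1*, which encodes another factor of this structural class that prefers the same CACGTG core. Members were all probesets that the platform annotation assigns to *MYC*, *MYCN*, *MAX*, *MXI1*, *MXD3*, *MXD4*, *MNT* or *MGA*, shared probesets included. The rule found 13 of 16569 probesets, which cover 7 of the 8 genes. *MYCN* had no assigned probeset and is not analysed here. All 13 probesets had passed the study's filter on absent calls, and how many probesets of these genes did not pass is not known from the files used here.

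The arrays fall into 2 groups. In the USF1 group (3 arrays), cells received the *USF1* coding region in an expression vector with a polyhistidine tag, and in the Empty vector group (3 arrays) cells of the same line received the vector alone. Total RNA was taken at 48 hours in both. Transfection is transient, so the cells that took up no plasmid are part of each RNA sample. In such bulk RNA, fewer cells with a transcript and less of it per cell cannot be told apart. The sources used here do not state whether the arrays of a group come from separate transfections, so p-values measure the spread between arrays, which may be technical. Each array gives RMA (robust multi-array average) expression values in log2 units, where 1 unit is a 2-fold change. Levels of different genes are not set against each other, because probes differ in how they bind, and the brightest probeset of a gene is only the one with the highest mean value. A probeset was called when its adjusted p-value from limma, fitted and adjusted over all probesets, was under 0.05.

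Some facts of the series touch every value below. The only probeset named for *USF1* alone read 4.76, 4.94 and 4.68 in USF1 arrays, against 4.37, 5.08 and 5.14 in Empty vector arrays (log2 difference -0.071, adjusted p-value = 0.836 from limma). Its place in the transcript is not given, so it does not check for plasmid transcript. The paper reports over-expression of the USF1 protein in these cells by western blot. Of 10 lineage markers of HEK293 cells, 7 had a probeset, among them the neurofilament genes *NEFM* and *NEFL* and vimentin (*VIM*). *L1CAM* rose by 0.43, 2 of 3 *NEFL* probesets rose by 0.38 and 0.41, *EYA1* fell by 0.41 and *INA* fell by 0.39. None of the hematopoietic, fibroblast, endothelial and hepatocyte markers had a probeset. Of 6 epithelial markers only *EPCAM* had one, and it rose by 0.93. The summed linear level of that list was 28.6 to 34.8 in USF1 arrays, against 14.6 to 19.4 in Empty vector arrays, and its part in the results was not tested. The 5' minus 3' value of the actin control probesets, a sign of RNA integrity, was -0.681 to -0.493 in USF1 arrays, against -1.34, -1.04 and -0.516 in Empty vector replicates 1, 2 and 3. That of the GAPDH control was -0.345 to -0.322 in USF1 arrays, against -0.582, -0.316 and -0.256 in those Empty vector replicates, so that only replicate 1 was low in both. Empty vector replicate 1 also stood apart: its probeset values differed from those of Empty vector replicate 2 with an SD of 0.336, where Empty vector replicates 2 and 3 differed with an SD of 0.182. The part of RNA quality in the differences below was not tested, and member values that moved without replicate 1 are given beside them.

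Because *USF1* and the network share an E-box, the 250 bases before the start sites that RefSeq lists (build GRCh38.p14) were searched for CACGTG, for the wider E-box CANNTG that contains it, and for ACGTG on either strand, which lies within CACGTG. Windows were listed for 7 members (*MYCN* included), 12 windows in all. CACGTG was found in 2 of these windows, those of *MXD4* and *MNT*, against 6.34% of all 35116 windows. CANNTG was found in 6 of 12 windows, against 61.8% of all, and ACGTG in 5, against 18.5%. Windows are shown from the genes that had a called probeset (*MXI1*, *MAX*, *MGA*) and for the pair that holds CACGTG, each from 5′ to 3′ on the gene's strand and ending at the last base before the start site, with matches to these motifs in capitals.

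*MXI1*, start 1, chr10:110207355-110207604, plus strand: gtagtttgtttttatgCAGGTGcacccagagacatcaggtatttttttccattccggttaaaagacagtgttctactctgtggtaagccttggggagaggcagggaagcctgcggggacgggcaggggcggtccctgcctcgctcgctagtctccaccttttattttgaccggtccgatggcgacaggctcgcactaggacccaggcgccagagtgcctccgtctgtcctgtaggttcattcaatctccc
*MXI1*, start 2, chr10:110209981-110210230, plus strand: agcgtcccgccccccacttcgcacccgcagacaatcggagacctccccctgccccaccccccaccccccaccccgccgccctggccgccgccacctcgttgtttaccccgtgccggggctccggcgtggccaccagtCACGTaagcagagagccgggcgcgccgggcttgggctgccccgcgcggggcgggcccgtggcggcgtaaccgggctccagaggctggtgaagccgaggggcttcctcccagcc
*MXI1*, start 3, chr10:110225746-110225995, plus strand: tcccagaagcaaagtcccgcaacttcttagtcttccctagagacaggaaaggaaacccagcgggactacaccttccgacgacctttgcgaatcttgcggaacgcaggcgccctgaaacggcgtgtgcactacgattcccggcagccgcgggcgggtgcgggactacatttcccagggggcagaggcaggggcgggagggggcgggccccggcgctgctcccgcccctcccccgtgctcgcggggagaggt
*MAX*, start 2, chr14:65101685-65101934, minus strand: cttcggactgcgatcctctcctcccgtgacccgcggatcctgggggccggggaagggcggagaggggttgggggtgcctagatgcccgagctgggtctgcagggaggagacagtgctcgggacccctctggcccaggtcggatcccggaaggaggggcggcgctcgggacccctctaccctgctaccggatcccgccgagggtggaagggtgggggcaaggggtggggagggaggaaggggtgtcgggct
*MGA*, start 1, chr15:41620974-41621223, plus strand: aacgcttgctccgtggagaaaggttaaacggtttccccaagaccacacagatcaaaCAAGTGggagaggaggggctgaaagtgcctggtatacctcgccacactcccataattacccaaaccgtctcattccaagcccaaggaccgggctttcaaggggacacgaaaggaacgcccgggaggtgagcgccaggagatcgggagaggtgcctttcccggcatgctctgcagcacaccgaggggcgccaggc
*MGA*, start 2, chr15:41660155-41660404, plus strand: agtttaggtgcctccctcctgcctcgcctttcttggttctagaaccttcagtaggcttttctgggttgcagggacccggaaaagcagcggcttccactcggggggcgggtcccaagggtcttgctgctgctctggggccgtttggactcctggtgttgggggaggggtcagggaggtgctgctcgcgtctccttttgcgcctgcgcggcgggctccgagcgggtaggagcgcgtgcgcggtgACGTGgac
*MXD4*, chr4:2262110-2262359, minus strand: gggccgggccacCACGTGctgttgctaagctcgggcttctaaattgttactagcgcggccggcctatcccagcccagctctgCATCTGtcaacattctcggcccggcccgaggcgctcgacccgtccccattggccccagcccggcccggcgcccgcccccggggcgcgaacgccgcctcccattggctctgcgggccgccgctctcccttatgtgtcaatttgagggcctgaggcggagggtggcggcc
*MNT*, chr17:2401061-2401310, minus strand: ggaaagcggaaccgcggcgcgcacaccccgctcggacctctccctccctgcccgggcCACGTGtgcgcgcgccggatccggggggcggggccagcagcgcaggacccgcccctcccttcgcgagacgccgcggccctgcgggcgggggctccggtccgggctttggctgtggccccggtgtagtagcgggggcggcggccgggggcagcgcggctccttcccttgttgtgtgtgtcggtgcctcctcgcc

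*MXD4* carried CACGTG starting 238 bases before its start site and a further E-box, CATCTG, 168 bases before it. *MNT* carried CACGTG 193 bases before its start site. In *MXI1* the window of start 1 held CAGGTG at 234 bases, that of start 2 held ACGTG or its reverse complement at 113 bases, and that of start 3 held none of the motifs. In *MAX* the window of start 1, which is not printed, held ACGTG at 22 bases, and that of start 2 held none. In *MGA* the windows held CAAGTG at 194 bases before start 1 and ACGTG at 8 bases before start 2, and that of start 3, which is not printed, held none. A match is a description of letters, and which of the start sites these cells use was not measured.

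In USF1 cells *MXI1* and 2 of 4 *MAX* probesets rose and 1 of 2 *MGA* probesets fell, while *MYC*, *MXD3*, *MXD4* and *MNT* did not pass the test. Of the 13 member probesets, 4 were called, where 11.9% of all probesets were. They were 3 that rose (4.32% of all probesets rose) and 1 that fell (7.60% fell). In 6 of the 13 the USF1 arrays lay beyond all Empty vector arrays, which was so for 36.1% of all probesets. The median log2 difference was 0.28 over the members, against -0.065 over all probesets, and the median absolute difference was 0.32, against 0.17. Probesets of a gene share a transcript and are not independent, so these are descriptions of 7 genes. Making array medians equal moved the median of all probesets to 0.0039. At an unadjusted p-value under 0.05 from limma stood 8 of the 13, where 31.3% of all probesets did (9.79% higher and 21.5% lower).

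**Figure D1:**
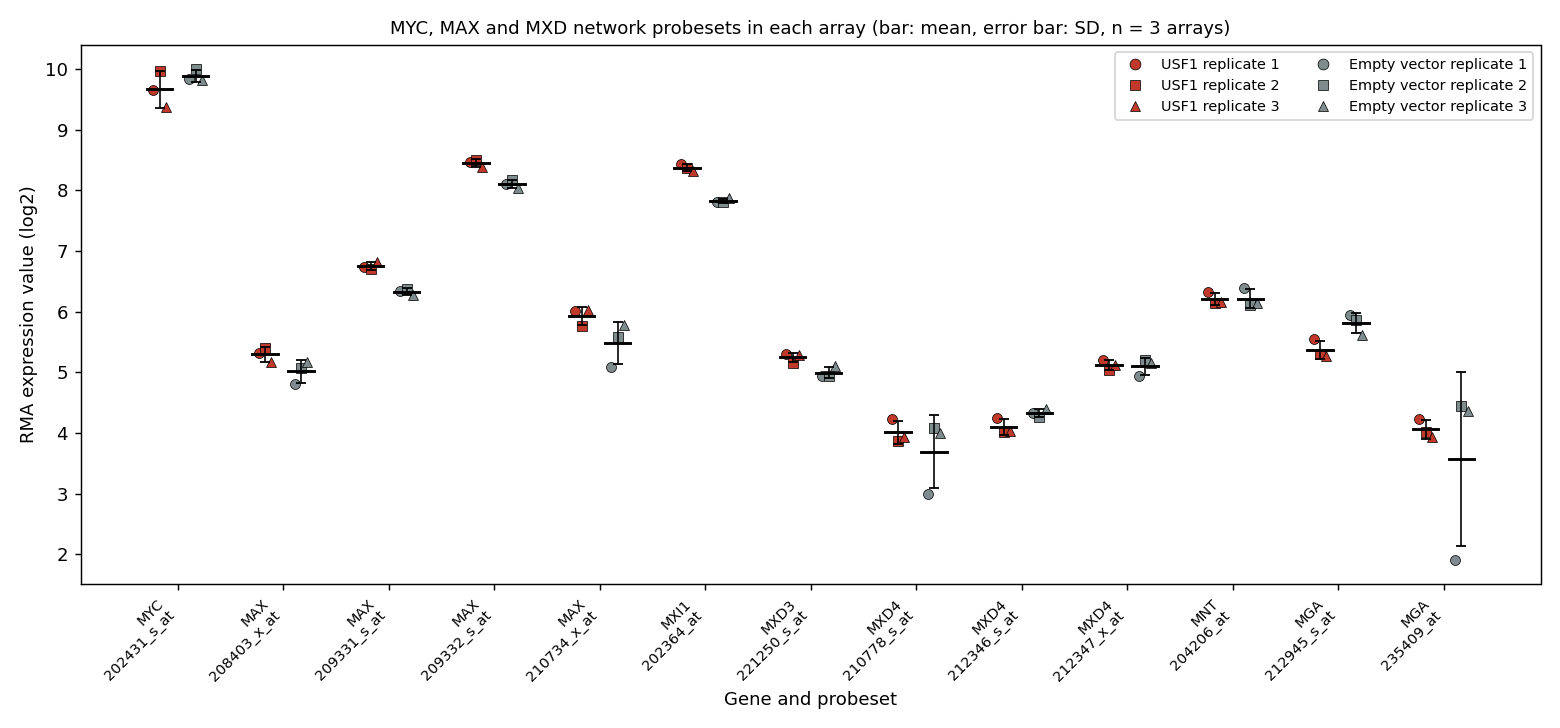
Expression value from RMA in log2 units (vertical axis) for the 13 network probesets (horizontal axis) in each array, with USF1 in red left of Empty vector in grey, a marker shape per replicate, the mean as a long bar and the SD as an error bar (n = 3 arrays). The USF1 arrays of *MXI1* and of 2 *MAX* probesets lie above all Empty vector arrays, and Empty vector replicate 1 lies far below the others at 210778_s_at of *MXD4* and 235409_at of *MGA*.

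The activator side of the network is represented by *MYC*, the oncogene whose product drives ribosome synthesis, metabolism and cell cycle entry. Its probeset (202431_s_at) read 9.65, 9.97 and 9.37 in USF1 arrays, against 9.83, 9.997 and 9.82 in Empty vector arrays. USF1 replicates 1 and 3 lay below every Empty vector array and replicate 2 lay among them, so the groups overlapped. The mean was 9.66 ± 0.30 in USF1 cells and 9.88 ± 0.10 in Empty vector cells (SD, n = 3 each). The log2 difference was -0.22 (SE 0.15, 95% confidence interval -0.55 to 0.11, adjusted p-value = 0.340 from limma). The spread among USF1 arrays was wider than this difference, and the interval holds both a fall and a small rise.

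*MAX* encodes the obligate partner of MYC, of the MXD proteins, of MNT and of MGA, and it also forms homodimers. It had 4 probesets, all higher in USF1 cells, of which 2 were called. At 209332_s_at, the brightest of them, values were 8.47, 8.50 and 8.38 in USF1 arrays, against 8.11, 8.17 and 8.03 in Empty vector arrays. Every USF1 array lay above every Empty vector array. The log2 difference was 0.35 (SE 0.09, adjusted p-value = 0.0367 from limma). At 209331_s_at values were 6.74, 6.70 and 6.82 in USF1 arrays, against 6.34, 6.38 and 6.27 in Empty vector arrays, again with no overlap. This rise measured 0.42 (SE 0.08, adjusted p-value = 0.0192 from limma), which is 1.34-fold.

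The remaining *MAX* probesets carry the suffix x, which on these arrays marks probesets designed with probes that can also match other transcripts. Values at 210734_x_at were 6.01, 5.76 and 6.03 in USF1 arrays, against 5.10, 5.58 and 5.78 in Empty vector arrays. Its log2 difference of 0.45 (SE 0.17) was larger than that of the called probesets but did not pass (adjusted p-value = 0.114 from limma). At 208403_x_at the values were 5.31, 5.40 and 5.17 in USF1 arrays, against 4.81, 5.07 and 5.17 in Empty vector arrays, which differ by 0.28 on average (SE 0.12, limma adjusted p-value = 0.146). In each of the x probesets Empty vector replicate 1 was the lowest array, and USF1 and Empty vector arrays overlapped. Without it the differences were 0.25 and 0.17, and the called probesets kept 0.43 and 0.35 (adjusted p-values 0.0222 and 0.0475 from limma). The call of 209331_s_at was lost without USF1 replicate 1 or 3 or Empty vector replicate 2 or 3 (adjusted p-values 0.0538 to 0.0904 from limma), and that of 209332_s_at when any array other than Empty vector replicate 1 was left out (adjusted p-values 0.0671 to 0.123 from limma). The differences lay between 0.31 and 0.45 throughout.

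Among the repressors, *MXI1* had the clearest change of the network. Its product pairs with MAX, recruits SIN3 corepressors and opposes MYC, and the gene is known to respond to low oxygen. Its single probeset (202364_at) read 8.43, 8.37 and 8.32 in USF1 arrays, against 7.81, 7.80 and 7.87 in Empty vector arrays. The gap between the lowest USF1 array and the highest Empty vector array was far wider than the spread within either group. The mean was 8.37 ± 0.06 in USF1 cells and 7.83 ± 0.04 in Empty vector cells (SD, n = 3 each). This corresponds to a log2 difference of 0.54 (SE 0.08, 95% confidence interval 0.36 to 0.73, limma adjusted p-value = 0.00779), or 1.46-fold. In absolute size it exceeded 94.7% of all probesets. It was called without each array in turn, with differences between 0.52 and 0.57, and adjusted p-values between 0.00831 and 0.0463 from limma. After adjustment the methods' t-test with unequal variances called no member probeset (adjusted p-value = 0.130 for *MXI1*), with 5 probesets at or under 0.05 before adjustment, and with equal variances in its place *MXI1* alone was called (adjusted p-value = 0.0410).

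**Figure D2:**
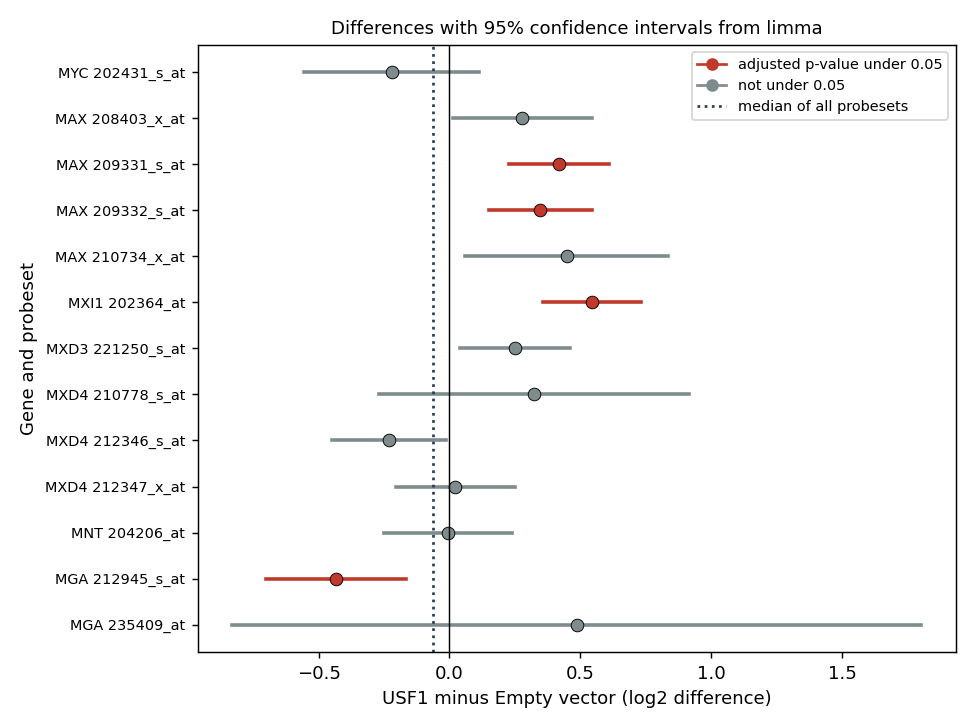
USF1 minus Empty vector difference in log2 units (horizontal axis) for each network probeset (vertical axis) with its 95% confidence interval from limma, in red where the adjusted p-value is under 0.05, and the median of all probesets as a dotted line. *MXI1* and 2 *MAX* probesets lie right of 0 and 1 *MGA* probeset lies left of it in red, and the other 9 are grey.

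*MXD3* encodes a paralog of MXI1 that is found in dividing cells. Its probeset (221250_s_at) read 5.30, 5.16 and 5.28 in USF1 arrays, against 4.94, 4.95 and 5.11 in Empty vector arrays. All USF1 arrays lay above all Empty vector arrays, the nearest pair by a small margin. The log2 difference was 0.25 (SE 0.09, 95% confidence interval 0.042 to 0.46), which did not pass over all probesets (adjusted p-value = 0.104 from limma).

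*MXD4*, a further paralog, was measured by 3 probesets, which did not move together. Each is also annotated to the microRNA gene *MIR4800*, so none is named for *MXD4* alone. At 212346_s_at values were 4.25, 4.02 and 4.04 in USF1 arrays, against 4.33, 4.27 and 4.40 in Empty vector arrays. The USF1 arrays all lay lower, with -0.23 between the group means (SE 0.10, limma adjusted p-value = 0.142). The brightest, 212347_x_at, differed by 0.023 (SE 0.10, limma adjusted p-value = 0.904), with values of 5.04 to 5.21 in USF1 arrays and 4.94 to 5.21 in Empty vector arrays, and had -0.057 without Empty vector replicate 1. At 210778_s_at values were 4.23, 3.87 and 3.94 in USF1 arrays, against 3.00, 4.08 and 3.99 in Empty vector arrays. Only Empty vector replicate 1 was far from the rest, and the difference was 0.32 with it (limma adjusted p-value = 0.431) and -0.022 without it. None of the 3 was called, and 212346_s_at and 210778_s_at lie among the dimmest 25% of probesets.

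*MNT* encodes a large MAX partner present in resting and dividing cells, which is thought of as the standing antagonist of MYC. Its probeset (204206_at) read 6.32, 6.14 and 6.16 in USF1 arrays, against 6.39, 6.10 and 6.14 in Empty vector arrays. The groups overlapped fully and the log2 difference was -0.0055 (SE 0.11, 95% confidence interval -0.25 to 0.24, adjusted p-value = 0.979 from limma). Without Empty vector replicate 1 it was 0.085, and its sign turned under other alternatives too. *MNT* and *MXD4*, whose windows hold CACGTG, thus had no called probeset, and nothing is drawn from this about the motif.

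*MGA* encodes a very large protein with a T-box as well as a MAX-binding domain and is the scaffold of a variant Polycomb complex. Its brighter probeset (212945_s_at) read 5.55, 5.31 and 5.27 in USF1 arrays, against 5.94, 5.86 and 5.62 in Empty vector arrays. The groups did not overlap, although USF1 replicate 1 came near Empty vector replicate 3. The log2 difference was -0.43 (SE 0.12, 95% confidence interval -0.70 to -0.17, adjusted p-value = 0.0468 from limma), 0.740 of the Empty vector level. This call lay close to the threshold. It was lost without USF1 replicate 1, 2 or 3 (adjusted p-values 0.0726, 0.0924 and 0.177 from limma) and without Empty vector replicate 1 or 2 (0.0718 and 0.132). With array medians made equal it was lost too (-0.37, limma adjusted p-value = 0.0590).

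At the other *MGA* probeset (235409_at) values were 4.24, 4.01 and 3.94 in USF1 arrays, against 1.92, 4.44 and 4.37 in Empty vector arrays. A single array, Empty vector replicate 1, made the mean of its group low, and the log2 difference was 0.49 (SE 0.58, limma adjusted p-value = 0.602). Without that array it was -0.34 (SE 0.11, limma adjusted p-value = 0.0713), and both remaining Empty vector arrays lay above all USF1 arrays. With all arrays the *MGA* probesets therefore had opposite signs.

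**Figure D3:**
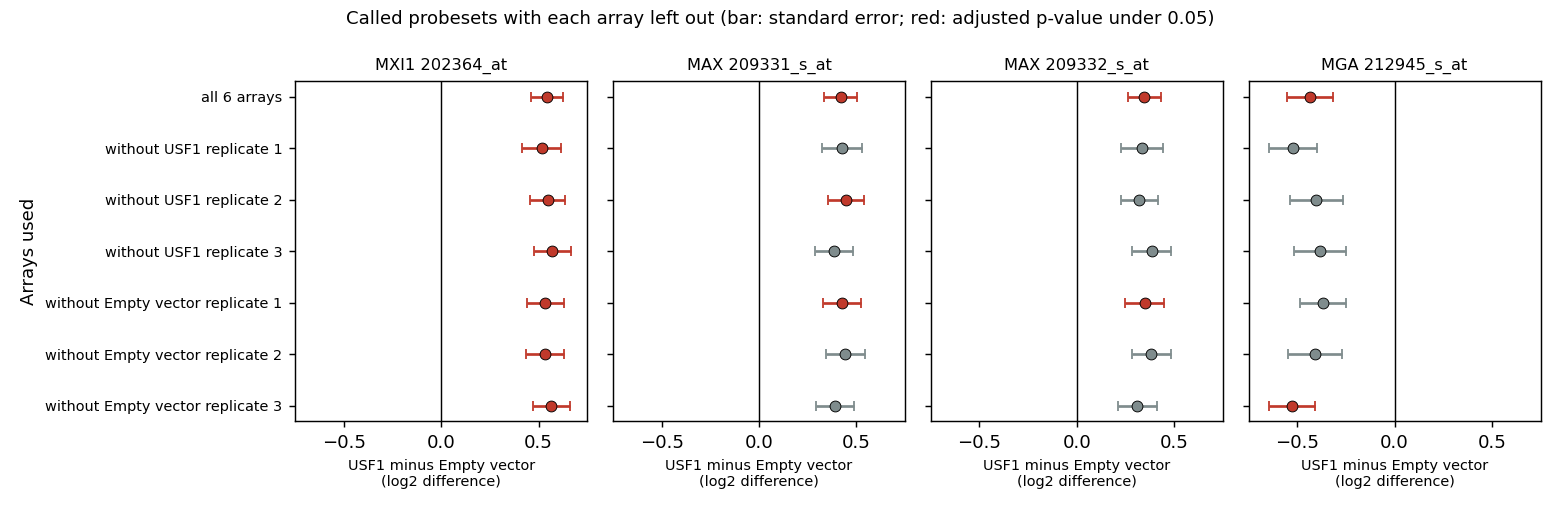
USF1 minus Empty vector difference in log2 units (horizontal axis) and its standard error (bar) for the 4 called network probesets, with all 6 arrays and without each array in turn (vertical axis), with red for a limma adjusted p-value under 0.05. *MXI1* stays red in every line, and the *MAX* and *MGA* probesets keep their side of 0 but turn grey without most single arrays.

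The genes whose array profile lay nearest to each called member were named by a fixed measure, the root mean square difference over the 6 arrays after each probeset's mean was subtracted. Nearest to *MXI1* were *SLC12A2*, a cotransporter of sodium, potassium and chloride (0.029 log2 units), *SSH3*, a phosphatase of cofilin (0.030), and *NOA1*, a mitochondrial GTPase (0.030). Their own log2 differences were 0.55, 0.58 and 0.50. Nearest to *MAX* at 209331_s_at were the NF-kappaB subunit *RELB* (0.031), *TMEM131* (0.032) and a probeset of *NEFL* (0.032), with differences of 0.45, 0.44 and 0.41. Nearest to 209332_s_at were *CEP55*, a midbody protein (0.028), the translation initiation subunit *EIF3B* (0.031) and the phosphatase *PPM1A* (0.033), with differences of 0.36, 0.33 and 0.34. Nearest to *MGA* were the glycogenin *GYG2* (0.024), *RMI1*, a subunit of the BLM helicase complex (0.038), and *PCYOX1L* (0.039), with differences of -0.43, -0.43 and -0.38. Of these *GYG2* and *PCYOX1L* were not called (adjusted p-values 0.0516 and 0.0725 from limma). As each profile holds the difference between the groups, this likeness is mostly one of size and sign over 6 arrays.

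Around the network, few genes passed the test. The remaining MYC paralog, the MXD paralog *MXD1* and the parallel branch built on MLX had 3 of 5 genes measured. MLX is the MAX-like partner of the glucose-responsive factor MLXIP (MondoA). *MXD1* and *MLXIPL* had no probeset of 1 gene. *MYCL* (214058_at) read 4.74, 4.50 and 4.45 in USF1 arrays, against 4.12, 4.35 and 4.04 in Empty vector arrays. The USF1 arrays all lay above the Empty vector arrays, by 0.39 on average (SE 0.12, limma adjusted p-value = 0.0616). With array medians made equal it was called (limma adjusted p-value = 0.0311). Its dimmer probeset 215491_at had -0.12. *MLX* had -0.24 (SE 0.09, adjusted p-value = 0.0992 from limma) with all 4 of its probesets below 0, and *MLXIP* had 0.095 at its brightest probeset and -0.23 at the other. With 0 called by limma, 1 was higher and 1 lower at an unadjusted p-value under 0.05 (9.79% and 21.5% of all probesets). The methods' t-test called none after adjustment, with unequal or equal variances.

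Most regulators of MYC protein were not called. Of 18 measured of 20, 1 rose and 2 fell, beside the 4.32% and 7.60% of all probesets. The median was -0.11, against -0.065 over all probesets. *BIN1* encodes an adaptor that binds MYC and restrains it. At 210201_x_at, its brightest probeset, values were 6.20, 5.96 and 6.15 in USF1 arrays, against 5.62, 5.37 and 5.53 in Empty vector arrays. The rise was 0.60 (SE 0.10, limma adjusted p-value = 0.0128), and all 4 of its probesets were called, with differences between 0.55 and 0.75. Of these 214439_x_at was called without each array in turn, and the others were not called without USF1 replicate 1, USF1 replicate 3 or Empty vector replicate 2 (differences between 0.46 and 0.57, adjusted p-values up to 0.100 from limma). *GSK3B*, the kinase that marks MYC for degradation, fell by 0.40 (SE 0.08, limma adjusted p-value = 0.0228) at 1 of 3 probesets, with 5.99, 5.98 and 5.85 in USF1 arrays, against 6.33, 6.37 and 6.32 in Empty vector arrays. That call was lost without USF1 replicate 1 or 3 or Empty vector replicate 2 or 3 (limma adjusted p-values 0.0537 to 0.106). *TRIM32*, a ubiquitin ligase, fell by 0.44 (SE 0.11, limma adjusted p-value = 0.0408), and its call was lost without USF1 replicate 1 or 3 or Empty vector replicate 1 or 2 (0.0588 to 0.152) and with array medians made equal (0.0517). In *USP36*, a deubiquitinase that stabilizes MYC, 1 of 4 probesets was called. It was the dimmer 220370_s_at, which rose by 0.78 (SE 0.14, limma adjusted p-value = 0.0157) while the brightest had 0.092. Without USF1 replicate 1 the probeset 220370_s_at was not called (limma adjusted p-value = 0.0672). *FBXW7*, *SKP2* and *HUWE1*, ubiquitin ligases of MYC, were not called, with -0.14, -0.15 and -0.25.

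Of 31 cofactors that MYC, MXD proteins, MNT and MGA recruit, 27 were measured and 0 were called by limma at their brightest probeset. Unadjusted, 1 was higher and 6 lower (9.79% and 21.5% of all probesets), and the methods' t-test called none after adjustment in either form. Differences were below 0 for 23 of the 27, where 60.8% of all probesets were, with a median of -0.12 against -0.065 over all probesets. With array medians made equal 17 of the 27 were below 0, where 49.2% of all probesets were, and the median was -0.049. The acetyltransferase *KAT2A* had -0.29 (SE 0.08), the helicase *RUVBL1* -0.33 (SE 0.10), *ZBTB17*, which encodes the MYC partner MIZ1, -0.35 (SE 0.11), and *L3MBTL2*, of the MGA complex, -0.25 (SE 0.10). *ACTL6A*, an actin-related subunit of chromatin complexes, had 0.39 (SE 0.13). A dimmer probeset of *EP400* (-0.40, SE 0.10) and that of the corepressor *SIN3B* (-0.40, SE 0.10) fell, while their brightest, at -0.32 and -0.26, did not pass. The dimmest *EP400* probeset, 230629_s_at, went the other way at 0.31 (SE 0.23) and was not called. The *EP400* call was lost whichever array was left out (limma adjusted p-values 0.0612 to 0.158), and the *SIN3B* call when any array other than USF1 replicate 2 was left out (up to 0.154).

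**Figure D4:**
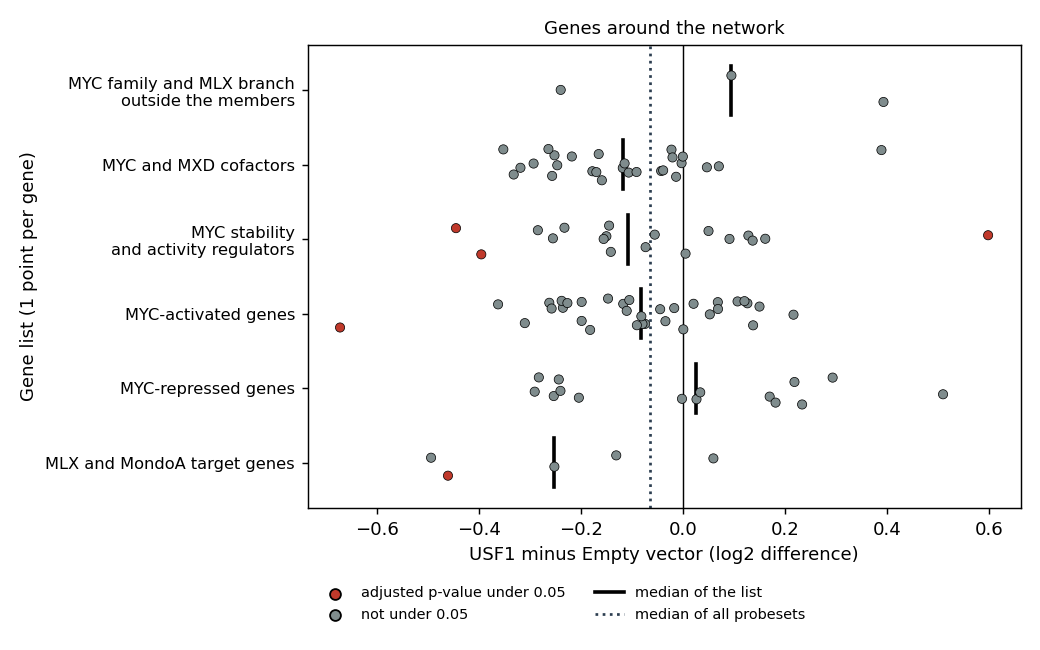
USF1 minus Empty vector difference in log2 units (horizontal axis) for each measured gene of 6 lists around the network (vertical axis), each at its brightest probeset, with red for a limma adjusted p-value under 0.05, with the list median as a bar and the median of all probesets as a dotted line. Red points are *BIN1* on the right and *GSK3B*, *TRIM32*, *E2F2* and *ACACA* on the left, and the medians of the cofactors and of the MYC-activated genes lie near the dotted line.

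Genes known as targets of MYC in other cells stand for the output of the network. Of 46 activated genes 33 were measured, and 0 rose and 1 fell, where 4.32% of all probesets rose and 7.60% fell. The median was -0.081, against -0.065 over all probesets. The one that fell was *E2F2*, a cell cycle transcription factor, with 5.75, 5.92 and 5.39 in USF1 arrays, against 6.55, 6.39 and 6.14 in Empty vector arrays. Its difference was -0.67 (SE 0.16, limma adjusted p-value = 0.0299), and the call was lost without USF1 replicate 1, USF1 replicate 3 or Empty vector replicate 2 (0.0857, 0.107 and 0.0914). *NCL* (0.15), *ODC1* (-0.15), *CAD* (-0.24) and *FBL* (-0.20), which serve nucleolar function and polyamine and pyrimidine synthesis, were not called. Unadjusted 5 of the 33 were lower, where 21.5% of all probesets were, and 0 were higher, where 9.79% were. Of 20 genes that MYC is known to repress, 15 were measured and 0 were called by limma, with 2 higher and 3 lower unadjusted (9.79% and 21.5% of all probesets), none called by the methods' t-test after adjustment, and a median of 0.027. The cyclin-dependent kinase inhibitors *CDKN1A* and *CDKN1B* had 0.17 (SE 0.12) and -0.24 (SE 0.08). *GADD45B*, a stress gene, had 0.51 (SE 0.16, adjusted p-value = 0.0707 from limma) at its brightest probeset, and its 2 dimmer probesets rose by 0.46 and 0.57. The call at 209304_x_at was lost when any array other than Empty vector replicate 1 was left out (limma adjusted p-values up to 0.133), and that at 209305_s_at was lost without USF1 replicate 3, Empty vector replicate 2 or Empty vector replicate 3 (up to 0.108).

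Among 8 targets of the MLX branch, 5 were measured and 1 fell, where 7.60% of all probesets fell. The median was -0.25, against -0.065 over all probesets, and -0.18 with array medians made equal. *ACACA*, acetyl-CoA carboxylase, read 6.65, 6.61 and 6.40 in USF1 arrays, against 7.10, 6.98 and 6.95 in Empty vector arrays (-0.46, SE 0.10, limma adjusted p-value = 0.0231). The call was lost without USF1 replicate 1, USF1 replicate 3 or Empty vector replicate 2 (0.0663, 0.0999 and 0.0702). The dimmer *ACACA* probeset 214358_at had -0.40 (SE 0.16, limma adjusted p-value = 0.131) and was not called. *ELOVL6*, a fatty acid elongase, had -0.25 at its brightest probeset (adjusted p-value = 0.0877 from limma), and its dimmer probeset fell by 0.34, a call that was lost whichever array was left out (limma adjusted p-values up to 0.153). *TXNIP*, the best known target of MLXIP, had -0.49 with a wide SE of 0.34. At its brightest probeset it read 4.69, 5.01 and 4.48 in USF1 arrays, against 4.62, 6.12 and 4.91 in Empty vector arrays, where Empty vector replicate 2 was far above every other array. *KLF10* had -0.13 (SE 0.18), and *ARRDC4*, the only measured target above 0, had 0.060 (SE 0.24). Neither was called.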

How the data were processed

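Gene expression was measured on Affymetrix arrays in HEK293T cells, 3 arrays per group, and arrays were assigned to groups by their titles. The authors deposited RMA values on the log2 scale, made with justRMA in R 2.8.0 (version from the submitters' processing notes) with background subtraction and quantile normalization, after masking of mis-targeted probes. Probesets left with few probes, or called absent on most arrays, had been removed, and ComBat had been used for batch correction. In the sources used here the batches are not stated. A gene called absent on most arrays cannot appear among the members.

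Differences were fitted over all 16569 probesets with lmFit and eBayes (limma 3.58.1, R 4.3.3) without covariates, with Benjamini-Hochberg adjustment and a threshold of 0.05. Genes were named from the platform annotation, with symbols updated through RefSeq tables of GRCh38.p14. Of the probesets 15099 had 1 gene, 570 several and 900 none. List genes were represented by their brightest probeset of 1 gene. The lists were written from general knowledge. Members and lists were chosen with earlier results of these data known. All member probesets were named, with up to 6 called genes of a list in each direction, genes that complete small counts and the 3 nearest profiles of each called member. Other list genes were named after their values were seen. The fit was tested on simulated data. At a simulated log2 change of 0.5 it recovered 44 of 100 changed probesets, and at 1 it recovered 99 of 100. False calls numbered 14. A change of 0.5 can thus go uncalled. Far fewer probesets were changed in the simulation than the 1974 called in the data, so these shares need not hold in this series. The number of arrays limits the precision. The methods' t-test was run with unequal variances, since degrees of freedom in the study's tables are fractional, and also with equal variances. Further alternatives were other priors, normalizations, filters and scales, array weights, the replicate number as a block, and each array left out in turn. Leaving out control probesets was added after the data were seen.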

Additional observations from a re-analysis of the deposited data

How the results depend on the processing

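The tests rest on 3 arrays per group, and some probesets of *MXD4* and *MGA* are dim. Counts are given as called probesets or genes. The methods' t-test with unequal variances put 5 member probesets at or under its unadjusted threshold (20.6% of all probesets), and 0 members and 1 of all probesets after adjustment. With equal variances in its place 5 members stood there (25.7% of all), and 1 and 160 after adjustment. By both forms 0 of the MYC regulators, MYC-activated genes and MLX targets were called. Over all probesets 1113 were called on the linear scale and 3688 with array weights. Higher values made up 36.2% of calls, 56.1% after centring and 50.4% after a further quantile normalization. With array weights 22.3% of all probesets were called. The lists then had 1 of 3 genes of the MYC and MLX families and 3 of 27 cofactors called. They also had 3 of 33 MYC-activated, 3 of 15 MYC-repressed and 2 of 5 MLX target genes. Centring and quantile normalization each called 1 gene of the MYC and MLX families (11.2% and 11.7% of all probesets). An intensity trend with a robust prior called 2 cofactors, 3 MYC-activated and 1 MYC-repressed genes (15.2% of all probesets). Without the dimmest 25% of probesets 2 cofactors were called (13.8% of the probesets left). On the linear scale 0 MYC-activated and 1 MYC-repressed genes were called (6.72% of all probesets). Averaging the probesets of a gene called 5 cofactors, 2 MYC-repressed genes and 2 MLX targets, and counting any probeset called 2, 1 and 2. For these gene counts no share over all genes was computed. The causes were not tested.

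Replicate numbers were shared by the groups. Deviations from the group means of same-numbered arrays correlated at 0.0958, 0.246 and 0.129 over all probesets, and each array correlated best with its own number, which is a hint from the data and not from the design. With the number as a replicate block, 2875 of all probesets (17.4%), 2 cofactors, 2 MYC-activated genes and 1 MYC-repressed gene were called. The 4 member calls were retained, *MXI1* at an adjusted p-value of 0.0178 and *MGA* at 0.0253 from limma.

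Leaving out single arrays, the count ranged from 369 to 2222 over all probesets (2.23% to 13.4%). Of the USF1 arrays, leaving out replicate 1 gave 466 and replicate 3 gave 369. Of the Empty vector arrays, leaving out replicate 2 gave 574 and replicate 3 gave 1110. It ranged from 1 to 3 for the members, with 1 without USF1 replicate 1, USF1 replicate 3 or Empty vector replicate 2, and 2 without USF1 replicate 2 or Empty vector replicate 3. The ranges were 0 to 1 for cofactors, 0 to 3 for MYC regulators, 0 to 2 for MYC-activated genes, 0 to 1 for MYC-repressed genes and 0 to 1 for MLX targets. The sign of *MNT* turned after centring (0.063), quantile normalization (0.061) and with array weights (0.077), and ranged from -0.062 to 0.085 without single arrays. Single arrays also turned *MXD4* at 210778_s_at (-0.022 to 0.52) and 212347_x_at (-0.057 to 0.075), *MGA* at 235409_at (-0.34 to 0.92) and *USF1* (-0.32 to 0.070). The probesets 210778_s_at, 212346_s_at and 235409_at were removed by the filter on dim probesets. No other member value changed sign under any alternative run.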
